A study of Mus musculus with 9 samples.

Results

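Cells dividing in culture transcribe a set of genes that build the mitotic spindle, attach chromosomes to it and time their separation, and 43 of these genes were followed here. They were the rows of the deposited count table whose gene symbol matched a fixed list of mitosis, spindle and kinetochore genes, 43 of 47729 rows, and each matched 1 row. Bulk RNA sequencing covered 9 mouse cultures derived from the subventricular zone and grown for up to 10 passages, 3 independent cultures of each of 3 kinds. The NSC group (cultures 1, 3 and 5) was wild-type primary neural stem cells. The LTR group (cultures 1 to 3) was tumour cells derived from such stem cells with the genotype lgT/Ras, an abbreviation the labels do not spell out. The group labelled NF1 (cultures 1 to 3) was stem-cell-derived tumour cells of genotype shp53, Nf1-/-, CDK4. The labels do not say whether the 3 tumour cultures of a genotype came from 1 transformed clone or several.

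In the mitotic cycle, cyclin B with the kinase Cdk1 drives entry, Aurora and Polo kinases shape the spindle, and kinetochores bind chromosomes to microtubules. The spindle checkpoint holds back the anaphase-promoting complex until every chromosome is attached, and that complex with Cdc20 then marks securin and cyclin B for destruction so that separase can open cohesin. Many of these genes are transcribed late in the cell cycle by the B-Myb, MuvB and FoxM1 machinery acting at promoter elements called CHR (cell cycle genes homology region), often beside CCAAT boxes bound by NF-Y. In the adult subventricular zone, dividing stem and progenitor cells are the main users of this programme.

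The library of culture 2 labelled NF1, called NF1 2, stood apart and is treated first because every result on that genotype rests on it. It was the lowest of all 9 libraries for 40 of 43 members (93%), while it was the lowest for 11.5% of the 15696 genes tested. The exceptions were Bub3 and Ube2c, lowest in NSC 1, and Pttg1, lowest in NSC 3. Summed over the members, levels in CPM, the read count scaled to the effective library size, were 3708, 4470 and 4469 in NSC 1, 3 and 5. They were 6994, 7286 and 7054 in LTR 1 to 3, and 7233, 2469 and 7043 in the libraries labelled NF1 1 to 3. Thus 5 of the 6 tumour libraries lay above every NSC library, and NF1 2 lay below every one. Its member levels were between 17.5% and 62.3% of the mean of the other 2 cultures of its genotype. In bulk RNA, fewer cells in mitosis and less mitotic RNA per cell cannot be told apart.

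Library totals were 28600479 to 57231024 counts, and the lowest count of any member in any library was 190. Trp53, the target named by the shp53 label, was at 107, 114 and 101 CPM in NSC 1, 3 and 5 and at 217, 151 and 221 CPM in the libraries labelled NF1 1 to 3. It was thus higher, not lower, under that label (log2 fold change 0.87 ± 0.20 SE, adjusted p = 0.0141), and every direction below for NF1 is one of libraries so labelled. Cdk4 stood at 795, 393 and 1120 CPM in those 3 libraries, against 325 to 456 CPM in NSC, so NF1 2 fell within the NSC range. In LTR, whose label names neither shp53 nor CDK4, Trp53 was at 223 to 281 CPM (log2 1.23 ± 0.20 SE, adjusted p = 0.00258) and Cdk4 at 935 to 1020 CPM (log2 1.41 ± 0.35 SE, adjusted p = 0.0135), so neither level told the tumour labels apart. Hras stood at 72.2 to 94.4 CPM in NSC. It read 92.3, 165 and 104 CPM in LTR (adjusted p = 0.0991) and 122, 167 and 151 CPM in NF1 (adjusted p = 0.0367), and the labels do not say which Ras gene lgT/Ras means. Nf1 was at 59, 97.2 and 40.1 CPM in the libraries labelled NF1 and at 82.5 to 114 CPM in NSC (adjusted p = 0.205). In LTR it was at 80, 40.3 and 58 CPM (adjusted p = 0.107 against NSC), so its level did not tell the tumour labels apart either. Of the 10 neural stem cell markers, Nes, Sox2 and Vim were high in every library. Fabp7 was at 343 CPM in NF1 2 and at 4.96 and 1.74 CPM in NF1 1 and 3.

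Markers of other cell types also differed between the groups. The 8 mural cell and fibroblast markers summed to 1560, 209 and 1950 CPM in NSC 1, 3 and 5, so NSC 3 stood apart from the other NSC cultures. They summed to 19.5 to 156 CPM in LTR and to 7.65 to 41.7 CPM in the libraries labelled NF1, and Dcn and Lum were at most 0.106 CPM throughout. Col3a1 went the other way, at 0.18 to 1.75 CPM in NSC and 152, 30.4 and 16.4 CPM in LTR 1 to 3, and made up most of the LTR sums. Rgs5 gave 38.4 of the 41.7 CPM in NF1 2. The 8 neuronal markers summed to 321 to 476, 26.3 to 79.2 and 21.6 to 53.6 CPM in NSC, LTR and NF1, with Rbfox3 at 0 in all but NSC 3. The 7 ependymal markers summed to 104 to 221, 2.06 to 2.75 and 2.73 to 11.0 CPM in the same order. NF1 2 held the largest sums of the 10 microglial markers (22.6 CPM, of which Cd68 gave 22.1) and of the 8 endothelial markers (164 CPM, of which Flt1 gave 155). The microglial sum was 2.19 to 6.68 CPM and the endothelial sum 7.35 to 45.4 CPM in the other 8 libraries. The microglial genes Cx3cr1, Itgam, C1qa, C1qb, C1qc and Tyrobp were at 0 in all 6 tumour libraries, and endothelial Cldn5 was at 0 in all 9. The part of these cells in the mitotic results was not tested. The column headers carry 1 lane tag for the NSC libraries and another for the tumour libraries, so that tag and the step from stem cell to tumour cannot be told apart.

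Promoter sequences show what several of these genes have in common. RefSeq promoters (GRCm38.p6, 250 bases before to 50 after the start of transcription) were found for 36 of 43 members. A CHR, read as TTTGAA or TTCGAA on either strand, occurred in 25 of 36 (69.4%), against 21.7% of the 27025 genes with a promoter entry. A gene counted if any of its windows held the element. A CCAAT box, read as CCAAT on either strand, occurred in 25 of 36 (69.4%), against 41.1%, and both elements together in 21 (58.3%), against 8.61%. A CCAAT box whose last letter begins a CHR would count for both, and a match describes the window only. The windows below run from 120 bases before to 30 after the start, 5′ to 3′ on the gene's strand, and the capitals mark CHR and CCAAT letters. The first 5 belong to the members with the smallest adjusted p that hold a CHR in this window, and Mki67, chosen after its values were seen, is a CHR promoter of a gene that did not pass in LTR.
Bub1, GRCm38.p6 chr2:127831830-127831979, minus strand: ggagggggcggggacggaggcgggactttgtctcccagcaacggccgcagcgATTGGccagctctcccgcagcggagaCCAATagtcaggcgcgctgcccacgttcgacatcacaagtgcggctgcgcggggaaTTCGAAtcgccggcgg
Ccnb2, GRCm38.p6 chr9:70421525-70421674, minus strand: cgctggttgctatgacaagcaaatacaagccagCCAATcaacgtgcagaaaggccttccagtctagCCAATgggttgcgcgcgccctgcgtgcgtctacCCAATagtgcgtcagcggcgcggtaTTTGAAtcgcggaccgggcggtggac
Cenpa, GRCm38.p6 chr5:30666766-30666915, plus strand: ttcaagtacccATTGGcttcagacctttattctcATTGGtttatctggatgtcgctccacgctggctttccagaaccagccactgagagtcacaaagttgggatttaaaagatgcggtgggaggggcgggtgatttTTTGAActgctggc
Ube2c, GRCm38.p6 chr2:164769809-164769958, plus strand: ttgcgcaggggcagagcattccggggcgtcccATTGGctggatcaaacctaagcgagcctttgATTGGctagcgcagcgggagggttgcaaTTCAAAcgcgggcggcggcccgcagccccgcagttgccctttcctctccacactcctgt
Cdk1, GRCm38.p6 chr10:69352883-69353032, minus strand: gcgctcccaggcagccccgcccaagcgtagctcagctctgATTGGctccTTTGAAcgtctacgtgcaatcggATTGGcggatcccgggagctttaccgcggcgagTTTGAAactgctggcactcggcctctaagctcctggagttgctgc
Mki67, GRCm38.p6 chr7:135716350-135716499, minus strand: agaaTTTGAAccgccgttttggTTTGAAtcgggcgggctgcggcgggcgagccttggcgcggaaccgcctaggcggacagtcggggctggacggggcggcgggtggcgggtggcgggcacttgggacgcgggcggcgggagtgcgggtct

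Bub1, Ccnb2, Cdk1, Cenpa and Ube2c each carry at least 2 CCAAT boxes upstream of a CHR that lies close to the start. The Mki67 window has 2 CHR matches, and its 3 CCAAT boxes lie farther upstream, at -188, -166 and -141 from the start, so it holds the same elements. Of the 9 members that rose in LTR, all of which had a promoter entry, 8 held a CHR and 7 at least 2 CCAAT boxes. Of the 27 other members with an entry, 17 held a CHR and 13 at least 2 CCAAT boxes. These shares are given as descriptions, without a test.

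Compared with NSC, most mitotic genes had positive fold changes in LTR, but fewer passed the test. With all 9 libraries in the fit, 9 of 43 members rose and 0 fell at an adjusted p below 0.05 (edgeR quasi-likelihood test, Benjamini-Hochberg over 15696 genes), against a background of 14.9% of all tested genes higher. The risers were Cdk1, Ccnb2, Aurka, Bub1, Bub3, Ube2c, Pttg1, Cenpa and Kif2c. The median log2 fold change of the members was 0.67, against -0.06 for all genes, and 41 of 43 were positive. For 31 members all 3 LTR libraries lay above all 3 NSC libraries, against 26.9% of all genes, and for 0 did all lie below (32% of genes). Without NF1 2, a library in neither group that enters the fit through the estimate of the spread, the scaling and the gene filter, 27 of 43 rose (background 20% higher) with a median of 0.68. On that set of genes 31 members did not overlap upward (background 26.2%) and 0 downward (32.4%). All 9 risers were also called without NF1 2, with adjusted p from 0.000216 for Bub1 to 0.00826 for Bub3.

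The count of risers moved with the libraries. Leaving out NSC 1 or NSC 5 left 0, LTR 2 left 1 (11.4% of all genes higher), LTR 3 left 2 (10.3%) and LTR 1 left 4 (11.1%). Leaving out NF1 2 gave 27 (20%), and without NSC 3 there were 7 (14.5%). The fall to 0 members was accompanied by fewer calls over all genes, with 6.7% and 7.35% called higher without NSC 1 and NSC 5. Under those fits the medians of the members stayed at 0.60 and 0.72.

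In the libraries labelled NF1, no member passed the test against the same NSC cultures when all 9 libraries were used, against a background of 10.1% of genes higher and 13.1% lower. By unadjusted p below 0.05 in edgeR 8 members were higher and 1 lower, while 6020 of the 15696 genes were below it in either direction. DESeq2 called 4 members higher (10.4% of all genes), and limma-voom called 0 (10.1%). The 9 genes that rose in LTR had NF1 values of log2 0.48 (Kif2c, adjusted p = 0.297) to 1.61 (Pttg1, adjusted p = 0.0934) with all libraries. The median log2 fold change was 0.41, against 0 for all genes, and for 0 of 43 members did all 3 libraries lie above the NSC range (18.7% of genes) or below it (23.7%). Without NF1 2, 29 of 43 rose and 0 fell (background 17.7% higher and 24.5% lower), with a median of 0.77, and both remaining libraries lay above all NSC libraries for 34 members (background 30%) and below for 0 (36.7%). A comparison of the libraries labelled NF1 with LTR gave 0 calls in either direction, with a median of -0.33 with all libraries and 0.07 without NF1 2. At an unadjusted p below 0.05 in edgeR it gave 0 members, against 1596 of the 15696 genes. Without NF1 2 it gave 1 member, against 1395 of 16343 genes. The edgeR background was 0 of all genes called, or 0.0428% higher and 0.165% lower without NF1 2. DESeq2 and limma-voom called 0 members with all libraries. Of 16510 genes DESeq2 called 196 higher and 139 lower, and limma-voom called 0 genes higher and 1 lower. With all libraries 0 members were apart from LTR in either direction (7.21% of genes up, 5.24% down), and without NF1 2, 3 lay above and 0 below (10.4% and 11.1%). The comparisons of LTR and NF1 with NSC share the NSC cultures, so their values are set side by side below and are not independent of each other. A p above the threshold does not show that levels were equal.

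**Figure D1:**
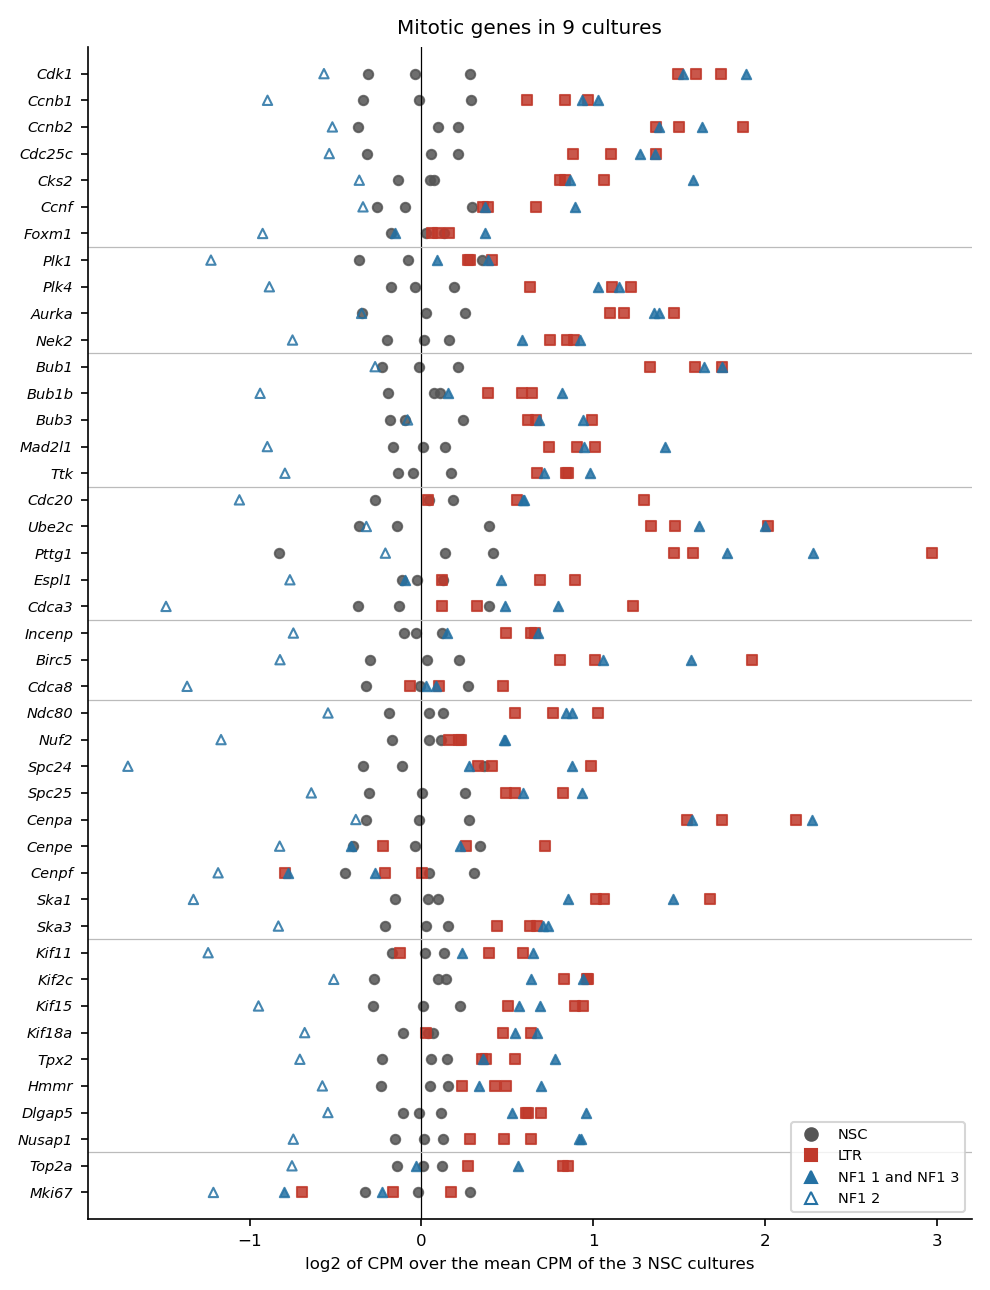
Each point is one library's level of a member as log2 of its CPM over the mean CPM of the 3 NSC cultures (x axis), with the 43 genes in rows grouped by role. Open triangles mark NF1 2, the lowest library for 40 of 43 members, while the other 5 tumour libraries lie mostly to the right of the NSC points.

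Among the kinase and cyclins of mitotic entry, 2 of 7 members rose in LTR with all libraries (14.9% of all genes) and 5 of 7 without NF1 2 (20%). In NF1 6 of 7 rose without NF1 2 (17.7%). Cdk1, the kinase that drives entry, stood at 130.2, 196 and 158 CPM in NSC 1, 3 and 5. It was at 455, 541 and 489 CPM in LTR 1 to 3 and 464, 109 and 598 CPM in NF1 1 to 3. Apart from NF1 2, every tumour library was more than 2 times above the highest NSC library. The LTR change was log2 1.62 ± 0.50 SE (adjusted p = 0.032), and without NF1 2 the NF1 change was log2 1.73 ± 0.22 SE (adjusted p = 0.000517). Ccnb2, a B-type cyclin partner of Cdk1, was at 45.7, 68.5 and 63.2 CPM in NSC 1, 3 and 5. It was at 167, 217 and 153 CPM in LTR 1 to 3 and 154, 41.3 and 183 CPM in NF1 1 to 3, again with NF1 2 alone below the NSC range. It rose by log2 1.60 ± 0.46 SE (adjusted p = 0.025) in LTR and, without NF1 2, by log2 1.52 ± 0.23 SE (adjusted p = 0.00104) in NF1. A Ccnb2 pseudogene has a row of its own, so shared reads could have been split between them.

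Cdc25c, the phosphatase that activates Cdk1, was measured at 20.2, 29.2 and 26.2 CPM in NSC 1, 3 and 5. It was at 54.1, 64.9 and 46.4 CPM in LTR 1 to 3 and 60.8, 17.4 and 64.5 CPM in NF1 1 to 3. All LTR libraries exceeded all NSC libraries, yet the LTR change was log2 1.13 ± 0.42 SE (adjusted p = 0.0628) with all 9 libraries and log2 1.14 ± 0.20 SE (adjusted p = 0.00173) without NF1 2. Of its exon bases 12.7% are shared with Gm3550 on the other strand. The main cyclin B gene, Ccnb1, had a smaller change in LTR than Ccnb2, log2 0.81 ± 0.42 SE (adjusted p = 0.157) and log2 0.82 ± 0.20 SE (adjusted p = 0.00827) without NF1 2, and the difference between the genes was not tested. Cks2, a small Cdk-binding subunit, had log2 0.91 ± 0.39 SE (adjusted p = 0.095) and log2 0.91 ± 0.20 SE (adjusted p = 0.00558) without NF1 2. Foxm1, the transcription factor for late cell cycle genes, did not pass, with log2 0.11 ± 0.18 SE (adjusted p = 0.624) in LTR and log2 0.14 ± 0.20 SE (adjusted p = 0.585) in NF1, both without NF1 2, and Ccnf, an F-box cyclin, passed only in NF1 without NF1 2 (log2 0.67 ± 0.23 SE, adjusted p = 0.0437).

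Of the 4 other mitotic kinases, Aurka alone passed in LTR with all libraries (14.9% of all genes higher), and 3 of 4 did without NF1 2 (20%). Aurka, the spindle pole kinase, was at 58.2, 88.4 and 75.4 CPM in NSC 1, 3 and 5. It was at 158, 205 and 168 CPM in LTR 1 to 3 and 193, 58.1 and 189.5 CPM in NF1 1 to 3, and its NF1 2 value lay just under the lowest NSC value. Its change was log2 1.26 ± 0.40 SE (adjusted p = 0.0356) in LTR and log2 1.38 ± 0.21 SE (adjusted p = 0.00114) in NF1 without NF1 2. Nek2, a centrosome-separating kinase, was at 59, 75.7 and 68.2 CPM in NSC 1, 3 and 5. It was at 126, 122 and 114 CPM in LTR 1 to 3 and 128, 40.2 and 101 CPM in NF1 1 to 3, with all LTR libraries above NSC. Plk4, which starts centriole duplication, was at 55.3, 50.1 and 64.4 CPM in NSC 1, 3 and 5. It was at 122, 87.8 and 132 CPM in LTR 1 to 3 and 115, 30.6 and 126 CPM in NF1 1 to 3. For both, the call depended on NF1 2: Nek2 changed by log2 0.83 ± 0.35 SE (adjusted p = 0.0905) and log2 0.84 ± 0.17 SE (adjusted p = 0.00318) without it, Plk4 by log2 1.01 ± 0.44 SE (adjusted p = 0.0968) and log2 1.02 ± 0.19 SE (adjusted p = 0.00243). Plk1, the Polo kinase needed throughout mitosis, did not pass in LTR or NF1 with or without NF1 2, with LTR values of 171 to 189 CPM beside NSC values of 110.3 to 181 CPM. Plk1 and Nek2 share 7.1% and 6.6% of their exon bases with genes on the other strand.

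Of the checkpoint genes, 2 of 5 rose in LTR with all libraries (14.9% of all genes) and 5 of 5 without NF1 2 (20%). In NF1 4 of 5 rose without NF1 2 (17.7%). Bub1, a checkpoint kinase at the kinetochore, had the smallest adjusted p of all members and stood at 60.9, 82.8 and 70.8 CPM in NSC 1, 3 and 5. It was at 216, 179.6 and 241 CPM in LTR 1 to 3 and 241, 59.3 and 224 CPM in NF1 1 to 3. Every LTR library and both other libraries labelled NF1 were at least 2 times above the highest NSC library. Its change was log2 1.57 ± 0.44 SE (adjusted p = 0.022) in LTR, and in NF1 log2 1.29 ± 0.43 SE (adjusted p = 0.0588) with all libraries and log2 1.71 ± 0.20 SE (adjusted p = 0.000323) without NF1 2. Bub3, the adaptor that brings Bub1 to kinetochores, was at 126, 169.8 and 134 CPM in NSC 1, 3 and 5. It was at 221, 286 and 228 CPM in LTR 1 to 3 and 230.4, 136 and 275 CPM in NF1 1 to 3, and here NF1 2 lay inside the NSC range. It rose by log2 0.77 ± 0.27 SE (adjusted p = 0.0488) in LTR, a call lost in 11 of 21 alternative fits. Ttk, the kinase that starts checkpoint signalling, was at 39.9, 42.4 and 49.5 CPM in NSC 1, 3 and 5. It was at 70, 78.9 and 79.3 CPM in LTR 1 to 3 and 86.9, 25.3 and 72.1 CPM in NF1 1 to 3, with every LTR library above NSC. Its LTR change of log2 0.79 ± 0.37 SE (adjusted p = 0.122) became log2 0.80 ± 0.16 SE (adjusted p = 0.00356) without NF1 2. Mad2l1, the inhibitor of Cdc20, passed without NF1 2 in both LTR (log2 0.90 ± 0.18 SE, adjusted p = 0.00333) and NF1 (log2 1.21 ± 0.20 SE, adjusted p = 0.00146). Bub1b, which encodes the checkpoint protein BubR1, had smaller values, log2 0.55 ± 0.20 SE (adjusted p = 0.048) in LTR and log2 0.54 ± 0.22 SE (adjusted p = 0.0792) in NF1 on the same libraries.

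Genes of anaphase onset held the largest change of the set. Pttg1, the securin that restrains separase, was at 38.5, 19.7 and 46.6 CPM in NSC 1, 3 and 5. It was at 96.7, 274 and 104 CPM in LTR 1 to 3 and 119.9, 30.2 and 169 CPM in NF1 1 to 3. All LTR libraries were above 2 times the highest NSC library, LTR 2 most of all, and NF1 2 was within the NSC range. Its change was log2 2.18 ± 0.64 SE (adjusted p = 0.0271) in LTR and log2 2.06 ± 0.48 SE (adjusted p = 0.00816) in NF1 without NF1 2. Ube2c, the ubiquitin-conjugating enzyme of the anaphase-promoting complex, was at 82.7, 140.0 and 96.4 CPM in NSC 1, 3 and 5. It was at 269, 431 and 296 CPM in LTR 1 to 3 and 326, 85.2 and 426 CPM in NF1 1 to 3. NF1 2 lay inside the NSC range there too, and the change was log2 1.64 ± 0.50 SE (adjusted p = 0.0314) in LTR and log2 1.83 ± 0.29 SE (adjusted p = 0.00124) in NF1 without NF1 2. Of its exon bases 22.8% are shared with Tnnc2 on the other strand, and no source used here states whether counting used strand. Espl1, the separase, was at 56.2, 53 and 62.5 CPM in NSC 1, 3 and 5. It was at 106, 62.2 and 92.5 CPM in LTR 1 to 3 and 79, 33.6 and 53.6 CPM in NF1 1 to 3. Its LTR libraries overlapped NSC through LTR 2, and it passed neither with all 9 libraries nor without NF1 2 (log2 0.61 ± 0.23 SE, adjusted p = 0.0541 in LTR without it). Espl1 did pass in LTR with only the 6 libraries compared (adjusted p = 0.0435), with the replicate block (adjusted p = 0.0478) and with the length trend described below removed (adjusted p = 0.0258). Cdc20, the activator that targets securin, and Cdca3 did not pass either. They had log2 0.73 ± 0.29 SE (adjusted p = 0.0646) and log2 0.65 ± 0.31 SE (adjusted p = 0.115) in LTR without NF1 2.

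None of the 3 chromosomal passenger genes passed with all libraries (14.9% of all genes higher in LTR, 10.1% in NF1). In LTR 2 of 3 did without NF1 2 (20%). Birc5, the survivin subunit, was at 56.4, 80.7 and 71.1 CPM in NSC 1, 3 and 5. It was at 121, 264 and 139.9 CPM in LTR 1 to 3 and 144, 39.2 and 206 CPM in NF1 1 to 3, with 5 tumour libraries above NSC. Its LTR change was log2 1.33 ± 0.53 SE (adjusted p = 0.0733) and log2 1.34 ± 0.31 SE (adjusted p = 0.00616) without NF1 2. Incenp, the scaffold of the complex, was at 102, 107 and 119 CPM in NSC 1, 3 and 5. It was at 170.2, 173 and 154 CPM in LTR 1 to 3 and 175, 65.1 and 121 CPM in NF1 1 to 3, and passed without NF1 2 in LTR (log2 0.61 ± 0.18 SE, adjusted p = 0.019) but had log2 0.45 ± 0.20 SE (adjusted p = 0.0923) in NF1. Cdca8, which encodes borealin, was at 68.7, 104 and 85.4 CPM in NSC 1, 3 and 5. It was at 82.2, 119.7 and 92.3 CPM in LTR 1 to 3 and 91.1, 33.4 and 87.8 CPM in NF1 1 to 3. Its tumour and NSC libraries overlapped. With all 9 libraries it had log2 0.19 ± 0.35 SE (adjusted p = 0.696) in LTR and log2 -0.28 ± 0.35 SE (adjusted p = 0.59) in NF1. Without NF1 2 these were log2 0.20 ± 0.20 SE (adjusted p = 0.455) and log2 0.07 ± 0.23 SE (adjusted p = 0.832). Birc5 had the highest and Cdca8 the lowest fold change of the 3 subunits in each of these fits, and the differences between the genes were not tested. With the length trend described below removed, the LTR values were 0.87 for Birc5, 0.65 for Incenp and -0.07 for Cdca8.

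At the kinetochore and centromere, 1 of 9 members rose in LTR with all libraries, not above the 14.9% of all genes. Without NF1 2, 5 of 9 rose in LTR (20% of all genes) and 6 of 9 in NF1 (17.7%). Cenpa, the histone variant that marks the centromere, was at 57.4, 87.1 and 71.4 CPM in NSC 1, 3 and 5. It was at 210.1, 327 and 242 CPM in LTR 1 to 3 and 214, 55.2 and 349 CPM in NF1 1 to 3. The 5 tumour libraries other than NF1 2 all exceeded 2 times the highest NSC library. It changed by log2 1.85 ± 0.54 SE (adjusted p = 0.0251) in LTR and log2 1.98 ± 0.28 SE (adjusted p = 0.000808) in NF1 without NF1 2. Ndc80, a microtubule-binding subunit of the outer kinetochore, was at 39.1, 45.9 and 48.5 CPM in NSC 1, 3 and 5. It was at 90.9, 65 and 75.9 CPM in LTR 1 to 3 and 80, 30.5 and 81.8 CPM in NF1 1 to 3, with all LTR libraries above NSC. Ska1, which helps the kinetochore hold on to shrinking microtubules, was at 16.3, 13.8 and 15.7 CPM in NSC 1, 3 and 5. It was at 30.9, 48.9 and 31.9 CPM in LTR 1 to 3 and 27.6, 6.08 and 42.1 CPM in NF1 1 to 3, the NF1 2 value being the smallest of any member in any library. Both passed in LTR without NF1 2, Ndc80 with log2 0.80 ± 0.18 SE (adjusted p = 0.00514) and Ska1 with log2 1.29 ± 0.25 SE (adjusted p = 0.00261).

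Cenpf, a large kinetochore and nuclear envelope protein, had negative fold changes and was at 161, 115 and 193 CPM in NSC 1, 3 and 5. It was at 157, 90.3 and 135 CPM in LTR 1 to 3 and 129.9, 68.8 and 91.1 CPM in NF1 1 to 3. Groups overlapped, and the change was log2 -0.30 ± 0.30 SE (adjusted p = 0.463) in LTR and log2 -0.69 ± 0.30 SE (adjusted p = 0.125) in NF1. Its LTR sign turned to 0.02 without LTR 2 and to 0.45 with the length trend described below removed. The kinesin Cenpe also showed no call, at log2 0.31 ± 0.29 SE (adjusted p = 0.4) in LTR and log2 -0.04 ± 0.32 SE (adjusted p = 0.923) in NF1, both without NF1 2. Of the other Ndc80 complex subunits, Spc25 passed in LTR without NF1 2 (log2 0.64 ± 0.20 SE, adjusted p = 0.024) while Nuf2 (log2 0.21 ± 0.14 SE, adjusted p = 0.254) and Spc24 (log2 0.61 ± 0.27 SE, adjusted p = 0.0902) did not. Ska3 had log2 0.59 ± 0.17 SE (adjusted p = 0.0157) there.

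For spindle motors and assembly factors, 1 of 8 rose in LTR with all libraries, not above the 14.9% of all genes. Without NF1 2, 4 of 8 rose in LTR (20% of all genes) and 7 of 8 in NF1 (17.7%). Kif2c, a kinesin that takes microtubules apart at centromeres, was at 51.6, 69.1 and 66.9 CPM in NSC 1, 3 and 5. It was at 111, 122 and 122 CPM in LTR 1 to 3 and 120.1, 43.9 and 97.3 CPM in NF1 1 to 3, with 5 tumour libraries above NSC. It changed by log2 0.92 ± 0.32 SE (adjusted p = 0.0492) in LTR and log2 0.81 ± 0.19 SE (adjusted p = 0.0082) in NF1 without NF1 2. The LTR call of Kif2c was lost in 11 of 21 alternative fits. Kif15, a motor that helps keep spindle poles apart, was at 55.6, 45.4 and 64.5 CPM in NSC 1, 3 and 5. It was at 102, 78.2 and 106 CPM in LTR 1 to 3 and 89.2, 28.6 and 81.8 CPM in NF1 1 to 3. Dlgap5, a spindle-stabilising protein, was at 61.2, 65.3 and 71.5 CPM in NSC 1, 3 and 5. It was at 101, 101 and 107 CPM in LTR 1 to 3 and 128, 45.2 and 95.2 CPM in NF1 1 to 3. Neither gene's LTR libraries overlapped NSC, and each passed in LTR without NF1 2, Kif15 with log2 0.80 ± 0.19 SE (adjusted p = 0.00723) and Dlgap5 with log2 0.65 ± 0.16 SE (adjusted p = 0.00956). Also without NF1 2, Kif11, the motor that separates the spindle poles, had log2 0.33 ± 0.22 SE (adjusted p = 0.243) in LTR, and Tpx2, the activator of Aurka, log2 0.43 ± 0.18 SE (adjusted p = 0.0804). Hmmr (log2 0.40 ± 0.17 SE, adjusted p = 0.0899) and Kif18a (log2 0.41 ± 0.19 SE, adjusted p = 0.0984) likewise did not pass in LTR on those libraries. Nusap1, a microtubule bundler, passed there without NF1 2 (log2 0.48 ± 0.16 SE, adjusted p = 0.0326) but not with all 9 libraries (log2 0.47 ± 0.37 SE, adjusted p = 0.34).

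The widely used proliferation marker Mki67 did not pass in either tumour group with or without NF1 2, though it was called higher in LTR once the length trend described below was also removed. It coats mitotic chromosomes and stood at 275, 222 and 339 CPM in NSC 1, 3 and 5. It was at 314, 172 and 249 CPM in LTR 1 to 3 and 238, 120.3 and 160.2 CPM in NF1 1 to 3. Its LTR libraries overlapped NSC, LTR 2 and both NF1 2 and NF1 3 lay below every NSC library, and the changes were log2 -0.19 ± 0.31 SE (adjusted p = 0.655) in LTR and log2 -0.69 ± 0.31 SE (adjusted p = 0.134) in NF1. The LTR sign turned to 0.13 without LTR 2. Top2a, which untangles replicated DNA, was at 454, 504 and 542 CPM in NSC 1, 3 and 5. It was at 903, 603 and 887 CPM in LTR 1 to 3 and 739, 297 and 489.5 CPM in NF1 1 to 3. All its LTR libraries were above NSC, and the LTR change was log2 0.67 ± 0.32 SE (adjusted p = 0.125), or log2 0.68 ± 0.23 SE (adjusted p = 0.0363) without NF1 2. In NF1 the Top2a change was log2 0.02 ± 0.32 SE (adjusted p = 0.963), and it turned to -0.34 without NF1 1 and to -0.04 without NSC 1.

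**Figure D2:**
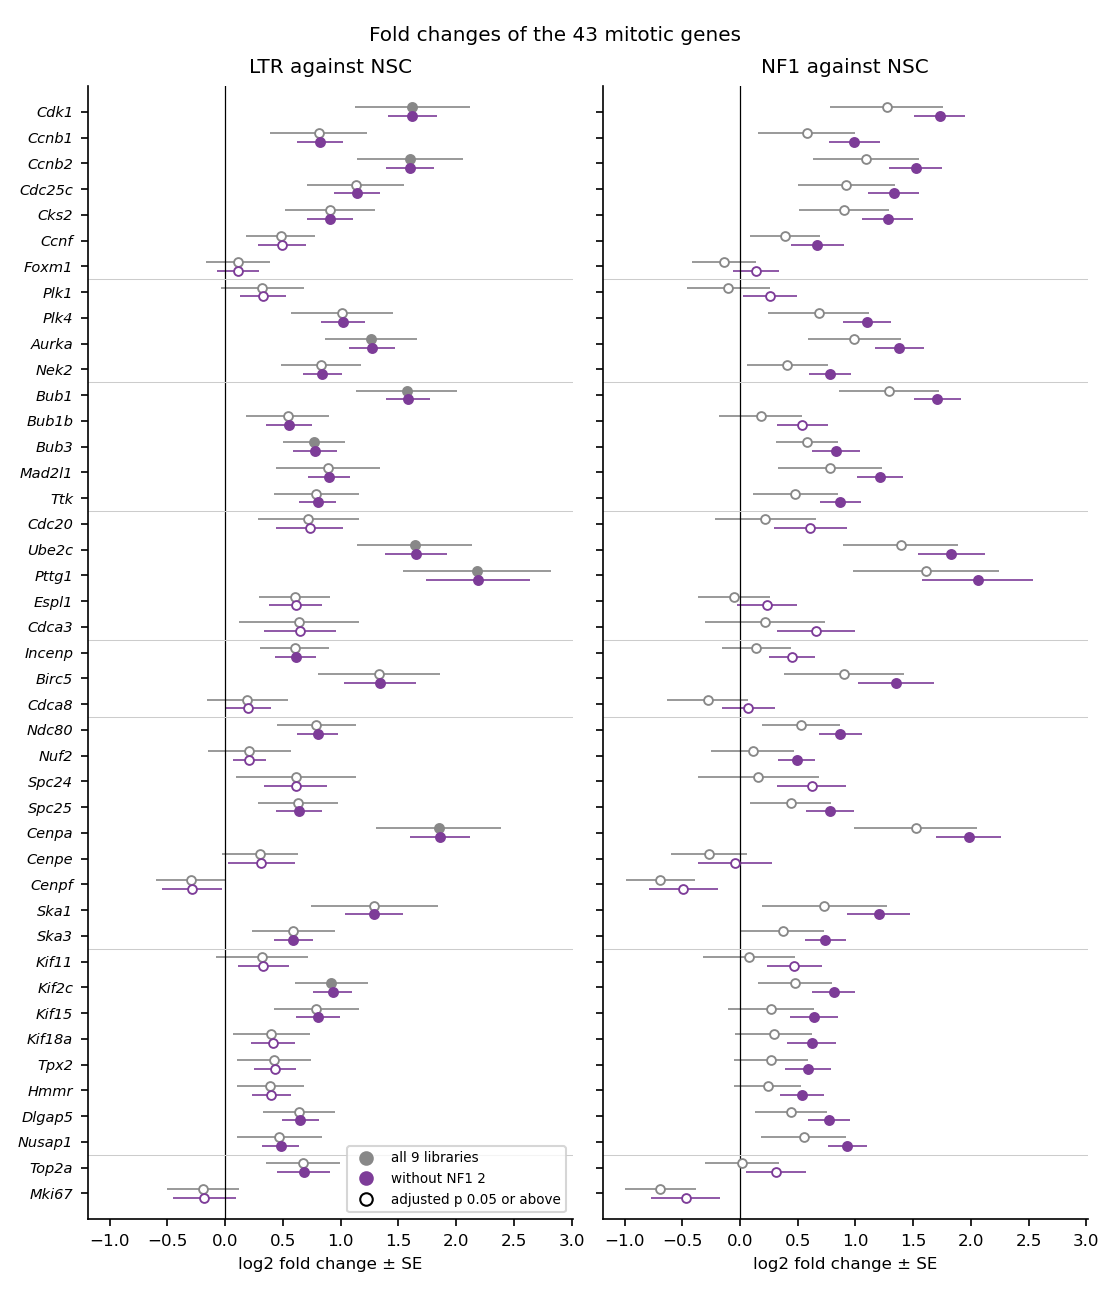
The log2 fold changes against NSC (x axis, bars are SE) are shown for all 43 members in LTR (left) and NF1 (right), in grey with all 9 libraries and in purple without NF1 2, filled where the adjusted p was below 0.05. Without NF1 2 the LTR values stay in place with narrower bars, from 9 to 27 filled, and the NF1 values move right, from 0 to 29 filled.

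Per kilobase of main transcript, the most abundant members in NSC were Ube2c at 110.0, Top2a at 95.8 and Cdc20 at 79.4 CPM per kb (means of 3 cultures). Ube2c also had the highest mean in LTR, 344 CPM per kb, and in NF1, 289 CPM per kb. The lowest in NSC were Ska1 at 5.8 and Espl1 at 8.59 CPM per kb.

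Fold changes were larger for members with short transcripts. For LTR against NSC, the 13 members with a main transcript of up to 2 kb had a median log2 fold change of 1.13 and the 12 above 4 kb one of 0.45. Over all genes the same medians were 0.33 and -0.43, so a trend of this direction ran through the whole table. Spearman's rho of fold change with length was -0.48 over the 43 members and -0.28 over 15654 genes in LTR, and -0.53 and -0.27 in NF1 without NF1 2, where the libraries compared are shared by all points. The same dependence separated replicates: LTR 2 against LTR 1 and 3 gave a rho of -0.78 over the members, and NF1 3 against NF1 1 gave -0.70. With the opposite sign, NF1 2 against NF1 1 and 3 gave 0.53 over the members and 0.31 over all genes. Its median log2 ratio was -2.03 for members up to 2 kb and -1.05 above 4 kb, against -0.27 and 0.47 over all genes. The part of transcript length in the single fold changes was not tested, but when each library's trend of level on length was taken out, a step chosen after seeing the data, 11 of 43 members rose in LTR (17.8% of all genes). On that scale Cenpf was at 0.45 and Mki67 at 0.49 in LTR, so the negative signs of the longest transcripts in the set, 11.1 and 10.1 kb, did not hold. Without NF1 2 as well, 34 rose in LTR (22% of all genes) and 33 in NF1 (19.7%), and both Cenpf (adjusted p = 0.0289) and Mki67 (adjusted p = 0.0195) were then called higher in LTR, at 0.45 and 0.49.

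**Figure D3:**
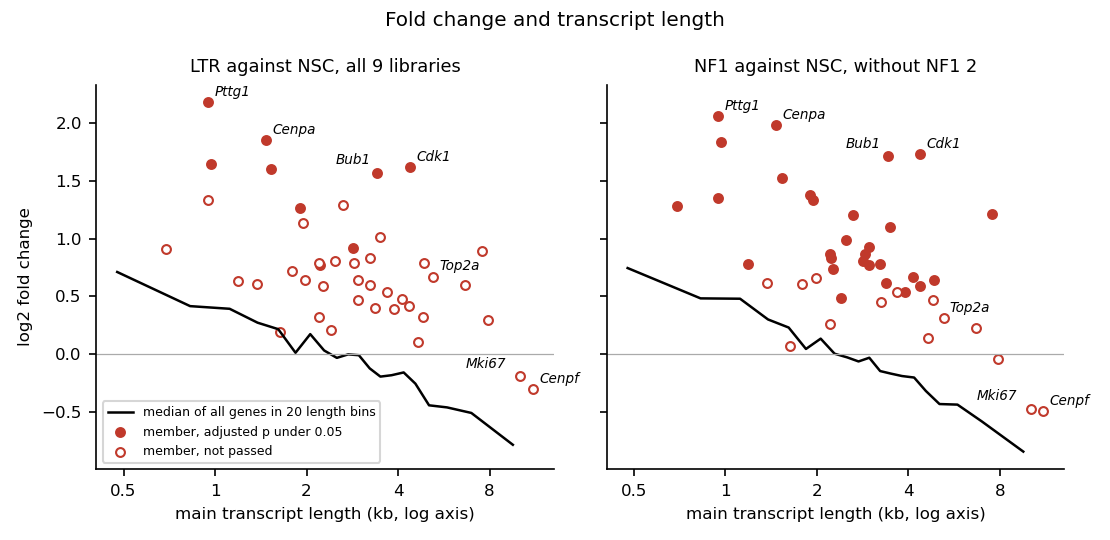
Log2 fold change (y axis) is plotted against main transcript length in kb (log axis) for the 43 members (red, filled where the adjusted p was below 0.05) with the median of all genes in length bins (black line), for LTR with all 9 libraries (left) and for NF1 without NF1 2 (right). Members lie above the line at most lengths, and Mki67 and Cenpf sit at the far right with values below 0.

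Ratios between functional partners do not depend on library size, but partners can differ in transcript length, with which fold changes varied as described above. Main transcripts were 3.42 and 3.67 kb for Bub1 and Bub1b, 4.38 and 2.49 kb for Cdk1 and Ccnb1, and 1.53 kb for Ccnb2. For Ube2c and Cdc20 they were 0.967 and 1.79 kb. For Nuf2 and Ndc80 they were 2.4 and 2.2 kb, and for Mki67 and Top2a 10.1 and 5.22 kb. The part of length in these ratios was not tested. Of 8 pairs looked at, chosen after the values were seen and so described without a test, 4 lay higher and 2 lower in all 6 tumour libraries than in all NSC libraries, NF1 2 included. The share of other gene pairs that would do so was not measured. Bub1 over Bub1b, as a ratio of CPM per kb, was 0.749, 0.825 and 0.724 in NSC 1, 3 and 5, 1.49, 1.48 and 1.72 in LTR 1 to 3, and 1.47, 1.22 and 2.16 in NF1 1 to 3. Bub1 transcripts were fewer than those of Bub1b in all NSC libraries and more in all 6 tumour libraries. Cdk1 over Ccnb1 was 0.567 to 0.589 in NSC, 0.891 to 1.26 in LTR and 0.866, 0.723 and 1.05 in the libraries labelled NF1. Ccnb2 over Ccnb1 was 0.573 to 0.65 in NSC and 0.783 to 1.44 in the tumour libraries. Ube2c over Cdc20 was 1.22 to 1.6 in NSC, 2.29 to 3.41 in LTR and 2.81, 2.31 and 3.67 in the libraries labelled NF1. Nuf2 over Ndc80, bound to each other in the outer kinetochore, was 1.77, 1.76 and 1.75 in NSC, 1.00, 1.35 and 1.21 in LTR and 1.37, 1.14 and 1.33 in NF1. Mki67 over Top2a was 0.228 to 0.324 in NSC and 0.145 to 0.211 in all tumour libraries. The other 2 pairs overlapped. Spc25 over Ndc80, of the same complex, ranged from 2.19 to 2.76 over the NSC cultures and from 1.64 to 2.90 over the tumour libraries, 1 of which lay above the NSC range. Cenpa over Ndc80 was at most 2.85 in NSC and 3.47 or more in 5 tumour libraries, but 2.71 in NF1 2.

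**Figure D4:**
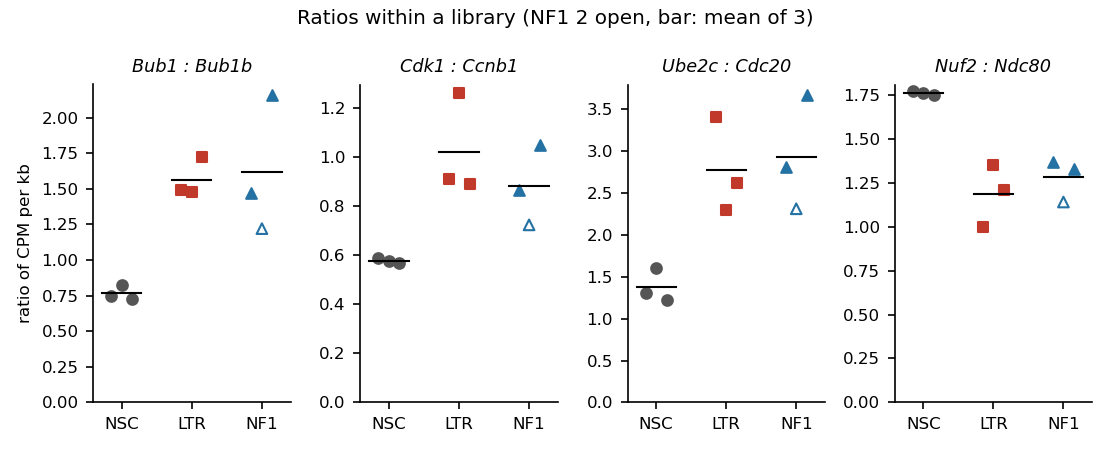
Ratios of CPM per kb between 2 members within each library (y axis, starting at 0) are shown for 4 of the 6 pairs that did not overlap, with 3 cultures per group, a bar at the mean and NF1 2 as an open triangle. All 6 tumour libraries, NF1 2 included, lie above all NSC libraries for the first 3 pairs and below them for Nuf2 over Ndc80.

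Other mitotic genes, from 7 lists that share no gene with the 43, had positive median log2 fold changes in LTR in each list, from 0.05 to 0.58, and the S phase genes kept for reference had one of 0.68. Their calls are to be read against the background of 14.9% of genes higher and 20.9% lower with all libraries and 20% and 26.7% without NF1 2. In the anaphase-promoting complex list 2 of 17 rose and 0 fell with all libraries, and 5 rose and 1 fell without NF1 2. Ube2s, which extends ubiquitin chains for the complex, was at 46.5, 79.3 and 52.4 CPM in NSC 1, 3 and 5. It was at 138, 262 and 149 CPM in LTR 1 to 3 and 146, 75.4 and 205 CPM in NF1 1 to 3, with log2 1.62 ± 0.40 SE (adjusted p = 0.0138) in LTR, and Fbxo5, its inhibitor Emi1, had log2 1.43 ± 0.46 SE (adjusted p = 0.0366). Of the 8 condensin genes 2 rose in LTR and 4 without NF1 2, led by Ncapg (log2 1.39 ± 0.38 SE, adjusted p = 0.0214) and Ncaph2 (log2 0.90 ± 0.29 SE, adjusted p = 0.0368). Of 12 cohesin genes 2 rose and, without NF1 2, 5, including Sgo1, the protector of centromeric cohesion (log2 1.34 ± 0.43 SE, adjusted p = 0.0377), and the core subunit Smc3 (log2 0.66 ± 0.22 SE, adjusted p = 0.0425). Of 28 other centromere and kinetochore genes 4 rose and, without NF1 2, 13, with Zw10 (log2 1.11 ± 0.25 SE, adjusted p = 0.00972) and Spdl1 (log2 1.09 ± 0.32 SE, adjusted p = 0.0268), both linked to dynein at kinetochores, having the smallest adjusted p.

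In the list of other entry and checkpoint genes, 4 of 20 rose and 1 fell in LTR, and 11 rose and 1 fell without NF1 2. Cks1b, a Cdk-binding subunit, was at 50.1, 73.9 and 62.8 CPM in NSC 1, 3 and 5. It was at 217, 405 and 247 CPM in LTR 1 to 3 and 213, 69.4 and 370.0 CPM in NF1 1 to 3, with NF1 2 inside the NSC range and log2 2.22 ± 0.52 SE (adjusted p = 0.0116) in LTR. Lin9, a MuvB subunit, had log2 1.22 ± 0.33 SE (adjusted p = 0.0188), and the gene that fell was Wee1, the kinase that holds Cdk1 inactive (log2 -0.71 ± 0.22 SE, adjusted p = 0.0336). Wee1 was singled out after its values were seen. Of 18 other motor and microtubule genes 1 rose and 2 fell, and 5 rose and 2 fell without NF1 2. Ckap2, a spindle microtubule protein, was at 165, 185 and 202 CPM in NSC 1, 3 and 5. It was at 110.0, 102 and 112 CPM in LTR 1 to 3 and 103, 94.1 and 105 CPM in NF1 1 to 3, with all 6 tumour libraries below all NSC libraries and log2 -0.77 ± 0.16 SE (adjusted p = 0.00645) in LTR. Spag5, which encodes astrin, rose by log2 1.03 ± 0.33 SE (adjusted p = 0.0352).

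Of 10 centrosome and centriole genes 1 rose and 1 fell in LTR, with or without NF1 2. Cdk5rap2, a scaffold of the material around centrioles, was at 197, 168 and 197 CPM in NSC 1, 3 and 5. It was at 65.5, 41.1 and 54 CPM in LTR 1 to 3 and 56.1, 82.6 and 32.7 CPM in NF1 1 to 3. Every tumour library lay below every NSC library, NF1 2 included, and the change was log2 -1.81 ± 0.32 SE (adjusted p = 0.00401) in LTR and log2 -1.71 ± 0.32 SE (adjusted p = 0.00672) in NF1. Tubg1, the gamma-tubulin of microtubule nucleation, rose by log2 0.66 ± 0.22 SE (adjusted p = 0.0417). Among 15 S phase genes 2 rose in LTR, Cdt1 (log2 1.02 ± 0.25 SE, adjusted p = 0.014) and Cdc6 (log2 1.06 ± 0.32 SE, adjusted p = 0.03), which license replication origins, and 10 did without NF1 2. Their summed level followed that of the mitotic genes, at 1904 to 2606 CPM in NSC, 3034 to 3213 CPM in LTR and 3249, 1277 and 3163 CPM in the libraries labelled NF1, NF1 2 again being the lowest. In those libraries the 8 lists together gave 3 risers and 3 that fell with all 9 libraries, against the background of 10.1% of genes higher and 13.1% lower. The risers were Ube2s, Zw10 and Cks1b and the others Wee1, Ckap2 and Cdk5rap2. Without NF1 2 (background 17.7% higher and 24.5% lower) the risers in NF1 were 4 of 17 in the anaphase-promoting complex list, 4 of 8 condensin, 3 of 12 cohesin, 15 of 28 centromere, 10 of 20 entry and checkpoint, 5 of 18 motor, 1 of 10 centrosome and 12 of 15 S phase genes. In the motor list 2 fell and in the centrosome list 1.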

How the data were processed

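The deposited table holds counts of reads per gene for 9 libraries, 3 independent cultures per group. Per the labels' protocols, RNA was column-purified and libraries were made with a NEBNext Ultra kit. STAR 2.5.2a, HTSeq and DESeq2 1.8.2 are listed in the submitters' processing notes with the builds GRCm38 and mm10. No source used here states the annotation release or whether counting used strand. Counts were tested as deposited with edgeR 4.0.16 in R 4.3.3: TMM scaling, filterByExpr with a minimum count of 10, a quasi-likelihood F test over all 9 libraries in 3 groups, and Benjamini-Hochberg adjustment over the 15696 genes kept. A call is an adjusted p below 0.05, and SE is the absolute log2 fold change over the square root of F. All 43 members passed the filter. CPM use TMM-scaled library sizes.

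The members and gene lists were chosen with earlier results of these data known. Members given in full were up to 3 per role with the smallest adjusted p, every member called, and every member whose direction in LTR was the reverse of its role's. In NF1 with all libraries Foxm1 (log2 -0.14), Plk1 (-0.10) and Cenpe (-0.27) also had the reverse sign and are given in brief. Without NF1 2 they were at 0.14, 0.26 and -0.04. Up to 2 genes per further list were named by the smallest adjusted p. Transcript lengths are those of the longest principal transcript in GENCODE M21. Every fit was repeated without NF1 2. Alternatives were RLE factors, library totals, DESeq2 1.42.0, limma-voom (limma 3.58.1), no filter, a minimum of 10 CPM in 3 libraries, the 6 libraries compared, a replicate block, each library left out, and, chosen after seeing the data, removal of length or GC trends and of NSC 3. No library pair was a duplicate: the chi-square per degree of freedom within groups was 13.4 or more. NSC 1 and NSC 5 were the closest pair, at 13.4. All other pairs were at 39.2 to 395, with NSC 3 at 182 from NSC 1 and 203 from NSC 5. The test was checked on simulated data.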

Additional observations from a re-analysis of the deposited data

How the results depend on the processing

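With all alternatives, no member was called lower in any of the 3 comparisons. The 9 members higher in LTR than NSC became 28 with only the 6 libraries compared (20.8% of all genes called higher, against 14.9%), 4 with a replicate block (6.54%), 33 without NF1 2 and NSC 3 (22.9%), and 34 with the length trend removed and without NF1 2 (22%). The LTR count was 7 with RLE factors (14.9%), 8 with library totals (14.4%) and 7 with the 10 CPM filter (16.5%). It was 10 with DESeq2 (14.5%) and 10 with no filter (7.83%). Leaving out 1 library at a time gave 0 to 27 (6.7% to 20% of all genes), the highest without NF1 2. The 0 members higher in NF1 than NSC became 4 with DESeq2 (10.4% of all genes, against 10.1%), 4 with no filter (5.39%), 1 with the length trend removed (13.4%), 30 without NF1 2 and NSC 3 (21%), and 33 with the length trend removed and without NF1 2 (19.7%). With 1 library left out the NF1 count was 0 to 29 (3.72% to 17.7% of all genes). The larger counts without NF1 2 go with a lower common dispersion (coefficient of variation 0.32, against 0.406). Otherwise the cause was not tested. Replicate numbers did not pair the samples: deviations of LTR and NF1 cultures of the same number correlated at 0.12, -0.10 and -0.23, and the block moved the LTR count to 4.

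Among the members given in full, signs of small changes turned as follows, as log2 fold changes, and the cause was not tested. In LTR, Cdca8 was at -0.07 with the length trend removed, with or without NF1 2. Cenpf was at 0.09 with the replicate block, 0.45 with the length trend removed, with or without NF1 2, and between -0.46 and 0.02 with 1 library left out. Mki67 was at 0.18 with the block, at 0.49 with the length trend removed, with or without NF1 2, and between -0.40 and 0.13 with 1 left out. In NF1, Cdca8 was at 0.27 without NF1 2 and NSC 3 and between -0.50 and 0.07 with 1 left out, and Cenpf at 0.02 and, without NF1 2, 0.33 with the length trend removed. Espl1 was at 0.06 with the 6 libraries compared, 0.21 with the block, 0.36 with the length trend removed, 0.68 with that and without NF1 2, 0.21 without NF1 2 and NSC 3, and between -0.38 and 0.23 with 1 left out. Mki67 was at 0.27 with the length trend removed and without NF1 2, and Incenp between -0.22 and 0.45 with 1 left out and at 0.48 without NF1 2 and NSC 3. Top2a was at -0.03 with library totals, -0.07 with limma-voom, -0.05 with the 10 CPM filter, -0.13 with the GC trend removed, 0.35 without NF1 2 and NSC 3 and between -0.34 and 0.31 with 1 left out. Over the named members, 800 of 1008 repeated values kept their direction and side of the threshold, 57 lost the call, 119 gained it and 32 changed sign. The lowest count of a member in a library was 190, and each group had 3 cultures.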
